A study of Mus musculus with 95 samples.

Results

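Pancreatic islets, small endocrine organs in which insulin-producing beta cells are the most abundant type in mice, were compared between 15 RNA-seq libraries with the highest and 15 with the lowest level of Mki67, whose product coats chromosomes during mitosis and is the usual marker of cycling cells. The series held 95 islet libraries, and the 10 numbered 91 to 100 were left out, so that the 15 high and 15 low libraries came from 85. The 10 were left out for their immune transcripts: the summed level of 15 macrophage genes had a median of 1093 CPM there, against 116 CPM in the 85. Both sets were chosen by their Mki67 values alone. Per the labels, the mice were of the founder strains behind the Diversity Outbred stock, an outbred population bred from inbred laboratory and wild-derived strains, and all of them, those of the low libraries included, received a high-fat, high-sugar diet with 45% fat. Strain, sex, age and treatment time were not given per library. The labels do not say whether 1 library is 1 mouse, so spreads and p-values below cover the differences between libraries. The other 55 of the 85 libraries were in neither set and served for a test.

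Adult beta cells divide rarely, and an enlarged demand for insulin, as under a diet high in fat, is a known stimulus of beta cell division in mice. A cell that commits to division switches on replication genes for S phase and then, in G2, a larger set of mitosis genes that build the spindle, attach chromosomes to it and drive the cut between daughter cells. The promoters of many mitosis genes are bound by the DREAM and MuvB complexes at a short element called the cell cycle homology region, next to CCAAT boxes bound by NF-Y, whereas many S phase genes carry E2F sites. In whole islets, fewer cells of a type and less RNA per cell cannot be told apart, and the dividing cells may be beta cells or any other type in the preparation.

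Mki67 (chr7:135689788-135716379, minus strand of GRCm38) had 7.88 CPM at the lowest, 9.14 at the median and 29.9 at the highest in the high libraries, against 0.889, 1.89 and 2.28 CPM in the low libraries. CPM is the count of a gene scaled to a common library total, where 1 CPM stands for 16 to 34 counts. These levels rest on 156 to 658 counts per high library and 26 to 66 per low library. Library 90 was the highest and library 22, with 17.5 CPM, the next. Of the 85 libraries, library 90 also had the highest mean log2 CPM of the genes listed for macrophages (4.58) and the interferon response (4.77). The same held for fibroblasts, stellate cells and pericytes (5.88) and for duct cells (6.45). The sets do not overlap because Mki67 chose them, and their limits fell among near neighbours. The last library inside the high set had 7.88 CPM (95% exact Poisson interval 6.88 to 8.99, for counting error only) and the first outside had 7.83 (6.81 to 8.97). At the other limit the last library inside the low set had 2.28 CPM (1.72 to 2.97) and the first outside had 2.43 (1.89 to 3.06).

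Total counts ran between 16411809 and 32072459 in the high libraries and between 24077938 and 32642173 in the low libraries. No 2 libraries held identical values. The library numbers fall into runs whose members are alike, and 7 sets of runs were used here. They held 3 high and 2 low libraries (numbers 1 to 8 and 34 to 39), 1 high and 4 low (9 to 16 and 40 to 48), 2 high and 4 low (17 to 24 and 49 to 58), 4 high and 0 low (25 to 32 and 59 to 65), 3 high and 3 low (66 to 75), 1 high and 0 low (76 to 85), and 1 high and 2 low (86 to 90). The labels do not say what a run is, so a run set and any strain, litter or batch it holds cannot be told apart. Genes of acinar cells, the enzyme-secreting cells that surround islets, took 0.292% to 14.8% of counts in the high libraries (median 4.45%) and 3.63% to 35.1% in the low libraries (median 12.2%). The run set that gave 4 high and 0 low libraries had the lowest median share, 0.727%. Xist, the transcript of the inactive X chromosome, exceeded 10 CPM in 4 of the 15 high libraries, 8 of the 15 low ones and 34 of the 55 others. Of the 8 low libraries 2 lay just above that level, at 11.0 and 11.2 CPM, and the other 6 at 198 CPM or more. Mki67 CPM is scaled to the column sum, so a larger acinar share lowers it. Trimmed-mean (TMM) scaling, used below, set the size of low library 54 (35.1% acinar) at 0.465 of its column sum. The sets and the Mki67 term of the test stayed on column sums under every scaling. Spearman's rho of Mki67 CPM with the mean log2 level of the acinar genes was -0.47 over the 85 libraries. It was also -0.47 over the 55 in neither set, where the median rho of all genes tested was -0.50. How far this choice builds in the lower acinar genes was not tested. The part of the acinar share, the run sets and Xist in the ratios between the sets was not tested either, and ratios within run sets are given beside some of them.

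Of 14962 autosomal genes compared, 1687 had a median at least 1.5-fold higher in the high libraries, which is 11.3%, and 394 had one at least 1.5-fold lower, 2.63%. These are descriptions of the sets with no test, as Mki67 itself picked the libraries. The balance between higher and lower depended on scaling. The median log2 ratio of all genes was 0.23 with column sums and -0.004 with trimmed-mean (TMM) scaling, which sets library sizes so that most genes stay level, where 649 genes were higher, 4.34%, and 746 lower, 4.99%, so that the share of higher ones was 46.5% in place of 81.1%. Ratios below are with column sums and are to be read against that shift of 0.23. With each gene's median in its run set subtracted 519 genes were higher and 116 lower, and with TMM as well 256 and 193.

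Mitosis genes stood highest. Of the 64 in the list, 57 were at least 1.5-fold higher in the high libraries and 1 was lower, with no filter on low counts, where 12.6% of all genes were higher. Their median log2 ratio was 1.31, against 0.23 for all genes without the filter. With the filter 53 were left, of which 46 were higher (41 with TMM, 42 with run set medians subtracted and 38 with both). The shares of all genes on these settings were 11.3%, 4.34%, 3.47% and 1.71%. In the deposited variance-stabilised values, whose scale is compressed for low genes, 4 of the 53 were higher, with a median difference of 0.32, against 0.722% of all genes. Sets that do not overlap were found for 7 genes, 0.0468% of those compared, all higher in the high libraries, and 6 of the 7 belonged to this list: Kif11 and Kif22, motor proteins of the spindle, Cdk1 and Ccnb1, the kinase and cyclin that start mitosis, Pbk, a mitotic kinase, and Ckap2l, a spindle protein. The seventh, Fignl1, a DNA repair ATPase outside the list, is named because its values were seen. With TMM only 1 gene had sets that do not overlap.

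The levels behind these ratios were low. Pbk had 1.06 CPM at the lowest, 2.14 at the median and 4.41 at the highest in the high libraries, against 0.0382, 0.384 and 0.834 CPM in the low libraries (log2 ratio 2.21). Every high library lay above every low one. Ttk, the checkpoint kinase that holds mitosis until chromosomes are attached, had 0.508, 0.979 and 3.18 CPM in the high libraries, against 0, 0.133 and 1.29 CPM in the low libraries (log2 ratio 2.21). Here the highest low library exceeded the median of the high ones. Nek2, a kinase that splits the centrosomes, had 0.670, 2.58 and 8.49 CPM in the high libraries and 0.265, 0.537 and 0.888 CPM in the low ones (log2 ratio 2.07). Hmmr, which helps to assemble the spindle, had 0.697, 2.30 and 5.00 CPM in the high libraries and 0.201, 0.497 and 0.991 CPM in the low ones (log2 ratio 2.01). For both genes the lowest high libraries lay inside the range of the low ones. Cdk1 had 0.938, 1.92 and 5.14 CPM in the high libraries, against 0.286, 0.489 and 0.884 CPM in the low libraries (log2 ratio 1.78). Ccnb1 had 0.796, 1.71 and 5.82 CPM in the high libraries, against 0.191, 0.376 and 0.729 CPM in the low libraries (log2 ratio 1.93). The sets of both were apart, though 27.7% of the 31-base words of Ccnb1 occur in other genes, so its counts may hold reads of its copies. Top2a, the topoisomerase that untangles replicated chromosomes, had the highest level of the mitosis genes named other than Spc25, with 2.88, 8.14 and 24.5 CPM in the high libraries and 0.895, 1.96 and 3.06 CPM in the low ones (log2 ratio 2.00). Its ranks followed those of Mki67 over the 85 libraries (Spearman's rho 0.871), as a description of points that share library and depth.

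**Figure D1:**
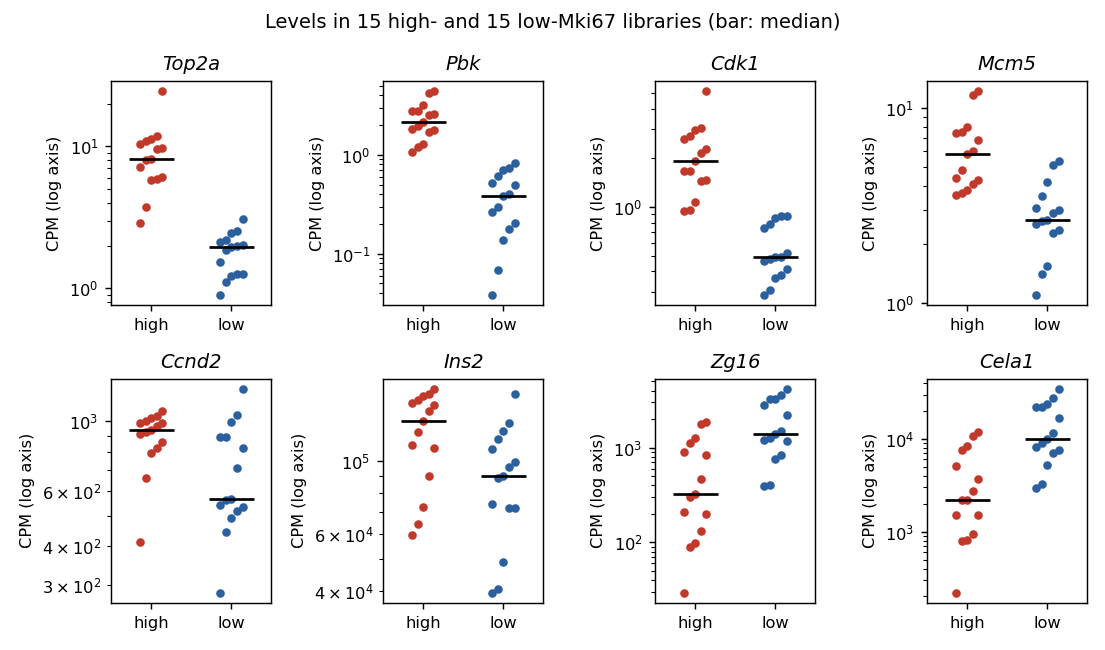
Levels in CPM (log axes, 1 panel per gene) of 8 genes in the 15 high (red, left) and the 15 low libraries (blue, right); each point is a library and each bar a median. The sets of Pbk and Cdk1 are apart, those of Top2a and Mcm5 overlap at their edges, those of Ccnd2 and Ins2 overlap over most of their range, and Zg16 and Cela1, genes of acinar cells, are lower in most high libraries.

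The mitosis difference was also present inside run sets. The mean log2 CPM of the list was higher in the high than in the low libraries by 0.93, 1.15, 1.71, 1.47 and 2.41 in the 5 run sets that held both, in the order of their numbers. The values 1.15 and 2.41 rest on 1 high library each, libraries 10 and 90. Between the whole sets without library 90, 45 of the 53 mitosis genes compared were at least 1.5-fold higher, against 11.5% of all genes. When the 2 libraries of highest Mki67 were set against the 2 of lowest in each of the 7 run sets, the difference was above 0 in 7 of 7, between 0.54 and 1.77.

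Spc25, a subunit of the NDC80 complex that ties chromosomes to the spindle, was the 1 mitosis gene lower in the high libraries. It had 45.0, 85.6 and 294 CPM in the high libraries and 16.5, 138 and 272 CPM in the low ones (log2 ratio -0.69), and 0.07 with run set medians subtracted. Its level was far above that of the other mitosis genes named, and its ranks over the 85 libraries did not follow Mki67 (rho -0.0186). The gene (chr2:69193895-69206194, minus strand) lies beside G6pc2 (chr2:69211073-69227841, plus strand), the glucose-6-phosphatase of beta cells, at a median of 2390 CPM, and its ranks followed those of G6pc2 more closely (rho 0.475). Whether reads of the neighbour enter its count was not tested.

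S phase genes differed less. Of 42 in the list, 17 were at least 1.5-fold higher and 0 lower with no filter, with a median log2 ratio of 0.54. Over all genes without the filter, 12.6% were higher and the median was 0.23. With the filter 13 of 37 were higher (9 with TMM), against 11.3% of all genes (4.34% with TMM). Uhrf1, which keeps DNA methylation through replication, had 0.670, 2.15 and 6.00 CPM in the high libraries and 0.171, 0.551 and 0.886 CPM in the low ones (log2 ratio 1.79). Mcm5, a subunit of the replicative helicase, had 3.58, 5.79 and 12.2 CPM in the high libraries and 1.09, 2.67 and 5.35 CPM in the low ones (log2 ratio 1.09). For Pole, the leading-strand polymerase, and Mcm3, another helicase subunit, the log2 ratios were 1.03 and 0.98. Among genes of DNA repair by recombination 8 of 14 were higher (4 with TMM), against the same shares of all genes.

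Genes that control entry into the cycle differed little once the shift of 0.23 is allowed for. In the list of D cyclins, their kinases and RB regulators 2 of 22 were higher, and 0 with TMM. Ccnd2, the main D cyclin of mouse beta cells, stood highest with 413, 936 and 1079 CPM in the high libraries and 284, 567 and 1269.5 CPM in the low ones (log2 ratio 0.72). It was -0.02 with run set medians subtracted, and the sets overlapped over most of their range. Among cell cycle inhibitors 4 of 18 were higher (1 with TMM) and 0 lower, with Btg1, an antiproliferative factor, highest (log2 ratio 0.92) and Men1, the menin tumour suppressor, lowest (-0.06). Cdkn1a, which encodes the p21 inhibitor induced by p53, had medians of 72.8 CPM in the high and 71.4 CPM in the low libraries. Myc, a growth-promoting transcription factor, had medians of 36.1 CPM in the high and 37.9 CPM in the low libraries. In the list of beta cell growth signalling 3 of 31 were higher (1 higher and 2 lower with TMM), a share near the 11.3% of all genes, and in that of the serotonin and prolactin response, known from beta cells in pregnancy, 3 of 14 were higher and 1 lower (0 and 1 with TMM).

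Hormone genes and beta cell identity genes were not set apart. Of 8 islet hormone genes 0 were 1.5-fold higher or lower (0 and 1 with TMM). Ghrl was lowest, at a log2 ratio of -0.57, and -1.13 with TMM. Ins2, an insulin gene, had 59383, 133022 and 166886 CPM in the high libraries and 39490, 89915 and 161439 CPM in the low ones (log2 ratio 0.57), and the sets overlapped over most of their range. Of 20 beta cell identity genes 3 were higher and 0 lower (0 and 0 with TMM), between Trpm5, a cation channel, at 0.85 and Foxa2, a transcription factor, at -0.37, which was 0.07 with 10 against 10 libraries and 0.40 with Top2a as the marker. Interferon response genes were higher for 10 of 16 (6 with TMM, and 2 with TMM and run set medians subtracted). The shares of all genes on these 3 settings were 11.3%, 4.34% and 1.71%. Gbp3, an interferon-induced GTPase, was highest with 1.73, 6.68 and 28.7 CPM in the high libraries and 0.970, 1.99 and 7.73 CPM in the low ones (log2 ratio 1.70). Immediate early genes were higher for 6 of 14, cholesterol synthesis genes for 5 of 20 and p53 targets for 5 of 16, against 11.3% of all genes. These counts were 3, 1 and 2 with TMM, against 4.34% of all genes. For oxidative phosphorylation 1 of 24 was higher and for ribosome biogenesis 1 of 19.

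Markers of other cells moved unevenly. Of 20 acinar genes 19 were at least 1.5-fold lower in the high libraries, with a median log2 ratio of -1.60 (-1.78 with TMM and -0.96 with run set medians subtracted). Inside the 5 run sets that held both kinds of library, the mean log2 CPM of the list differed, high minus low, by -0.38, 0.13, -3.46, -0.79 and -0.59 in the order of their numbers. It was thus not lower in numbers 9 to 16 and 40 to 48, and the difference was widest in 17 to 24 and 49 to 58. Zg16, a protein of zymogen granules, had 29.4, 321 and 1854 CPM in the high libraries and 393, 1377 and 4159 CPM in the low ones (log2 ratio -2.10). Sycn, another granule protein, had 39.1, 364 and 1703 CPM in the high libraries and 221, 1909 and 4296 CPM in the low ones (log2 ratio -2.39). The sets overlapped for both. Among T and B lymphocyte genes 4 of the 6 that passed the filter were higher. With TMM 2 were, with run set medians subtracted 2, and with 2 libraries against 2 per run set 5. Without the filter 7 of 14 were higher. Cd4, the co-receptor of helper T cells, had medians of 0.639 CPM in the high and 0.153 CPM in the low libraries. Among macrophage genes 3 of 15 were higher (1 higher and 1 lower with TMM). With run set medians subtracted 5 were, and with 2 against 2 per run set 3. C1qa, a complement subunit, had medians of 33.5 CPM in the high and 19.6 CPM in the low libraries. The summed level of the 14 lymphocyte genes ran from 5.87 to 125 CPM in the high libraries (median 16.6) and from 5.39 to 60.7 CPM in the low ones (median 8.66). The summed level of the 15 macrophage genes ran from 71.9 to 512 CPM in the high libraries (median 150.03) and from 44.4 to 194 CPM in the low ones (median 111). Of 11 duct genes 2 were higher and 5 lower (1 and 5 with TMM), and of 7 genes of glia 1 was higher and 4 lower (0 and 4 with TMM, and 0 and 0 with run set medians subtracted). For endothelial genes 0 of 12 were higher or lower. Over all genes 11.3% were higher and 2.63% lower, and 4.34% and 4.99% with TMM. The share higher was 3.47% with run set medians subtracted, 3.64% with 2 against 2 per run set and 12.6% without the filter. The part of these cells in the mitosis difference was not tested.

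**Figure D2:**
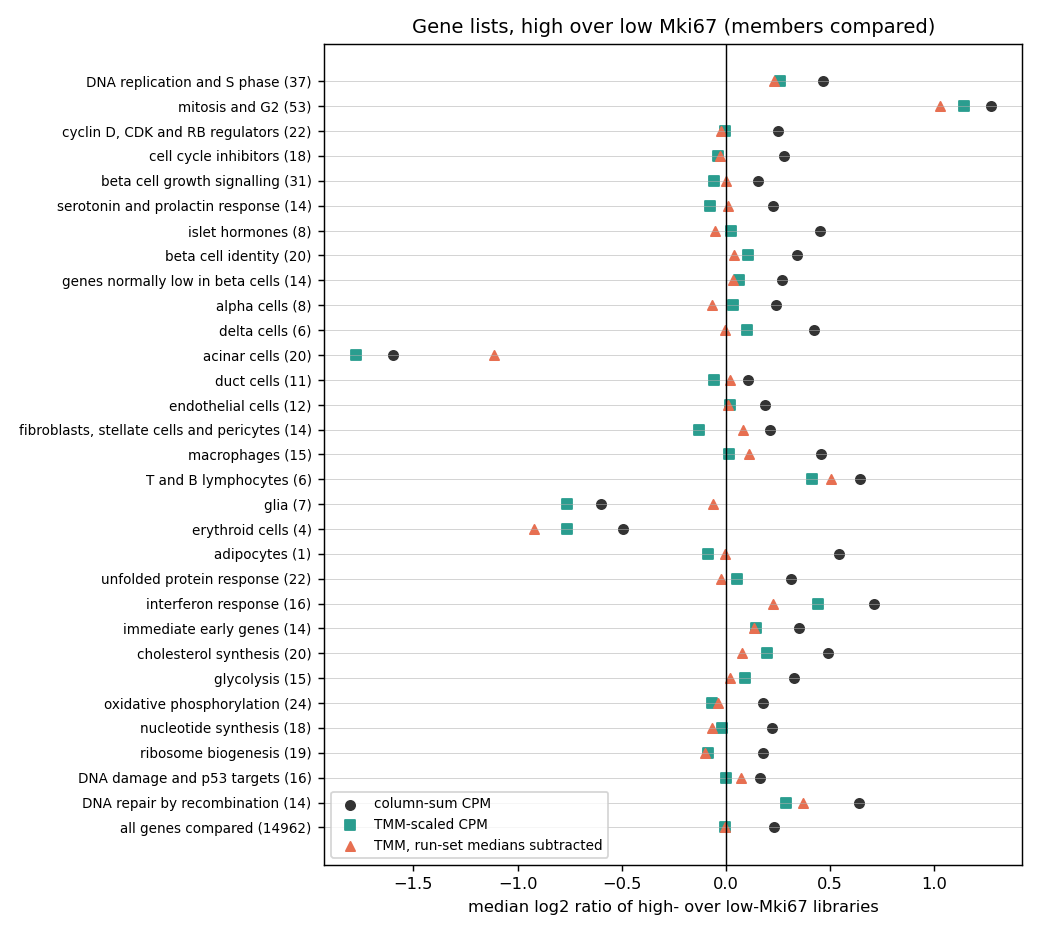
Median log2 ratio of the high over the low libraries for the compared members of each gene list (their number in parentheses), with column sums (black), TMM (green) and TMM with run set medians subtracted (orange). Mitosis genes stay above 1 and acinar genes below -1 under all 3, while most other lists lie near the value of all genes.

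Among protein-coding genes outside the division lists, with a median of 2 CPM or more, the highest ratios lay mostly between run sets. The 12 highest had a median log2 ratio of 2.45, and all 12 stayed above 1.5-fold with TMM. With run set medians subtracted 2 of the 12 stayed so and the median of the 12 was 0.21, and with the 2 highest against the 2 lowest libraries of each run set 3 did. Tex15, which is known from the germ line, had 0.232, 9.37 and 19.9 CPM in the high libraries and 0.0695, 0.645 and 17.1 CPM in the low ones (log2 ratio 3.67, and 0.32 with run set medians subtracted). Atp5g2, a subunit of ATP synthase, had 4.20, 67.8 and 97.5 CPM in the high libraries and 2.80, 5.70 and 76.7 CPM in the low ones (log2 ratio 3.55, and 0.04), and 40.2% of its 31-base words occur in other genes. Clip4, of the CAP-Gly linker family, had 1.33, 22.3 and 47.4 CPM in the high libraries and 1.10, 4.15 and 48.9 CPM in the low ones (log2 ratio 2.40, and 0.06). Each of these genes spanned nearly the same range in both sets, with medians far apart. The others were Dmtn, Tcf24, Cyp4f16, Gbp4, Nrcam, Fbp1 and 3 genes without an assigned name.

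Of the 12 lowest ratios, 8 stayed at least 1.5-fold lower with run set medians subtracted. The median of the 12 was -0.67 there, against -2.36 without that step. The lowest of all was Lefty1, a secreted TGF-beta inhibitor, at -4.12, and it was 0.37 with run set medians subtracted. Amd2, a copy of the gene for S-adenosylmethionine decarboxylase with 90.9% of its 31-base words in other genes, was at -2.24 and 0.35 on the same 2 settings, and Padi2, which converts arginine to citrulline in proteins, at -2.33 and -0.35. The list also held Cela1, Ctrl, Sycn, Zg16, Amy2a3 and Prss3, enzymes and granule proteins of acinar cells, with Tff2 and Dmbt1, which are secreted by epithelia. Cela1, an elastase, had 219.5, 2219 and 11907 CPM in the high libraries and 2965, 10044 and 34553 CPM in the low ones (log2 ratio -2.18). Fgf21, a metabolic hormone that acinar cells also make, had medians of 1.28 CPM in the high and 8.05 CPM in the low libraries. All 31-base words of Amy2a3 and 75.4% of those of Prss3 occur in other genes, so reads of their families may have been split among copies.

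A test was made in the 55 libraries in neither set, whose Mki67 lay between 2.43 and 7.83 CPM. They are other libraries than those compared above, but the same Mki67 values placed them between the sets. In each, the log2 level of 14562 autosomal genes was fitted on log2 Mki67 with the run set as a further term (edgeR's quasi-likelihood test, Benjamini-Hochberg adjustment over all of them). The slope is the log2 change per doubling of Mki67. With an adjusted p under 0.05, 23 genes rose with Mki67, 0.158% of those tested, and 71 fell, 0.488%. Of the 23, 16 were mitosis genes (of 48 tested) and 1 was an S phase gene (of 37), and the median slopes of these lists were 0.35 and 0.09, against 0.002 for all genes.

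Hmmr had the steepest slope of the genes that rose, 1.04 ± 0.14 (SE; adjusted p 1.4e-05 by edgeR). Cenpf, a kinetochore protein, rose by 0.85 ± 0.13 (adjusted p 0.00014 by edgeR) and Top2a by 0.71 ± 0.11 (adjusted p 0.00031 by edgeR). Nek2 rose by 0.85 ± 0.14 and Pbk by 0.92 ± 0.16. Anln, Ect2 and Prc1, which act in the cut between daughter cells, rose by 0.57, 0.58 and 0.53. Bub1b, Cdc20 and Cenpe, parts of the spindle checkpoint and the kinetochore, rose by 0.65, 0.64 and 0.61. Aspm, Tpx2, Nusap1 and Ckap2l, spindle proteins, rose by 0.95, 0.51, 0.50 and 0.58, and Cdk1 by 0.60 ± 0.15 (adjusted p 0.049 by edgeR). Mcm5 rose by 0.40 ± 0.10 (adjusted p 0.033 by edgeR). Of the mitosis genes with sets that do not overlap, Ccnb1 had a slope of 0.73 ± 0.21 and Kif11 one of 0.40 ± 0.11 that did not pass (adjusted p 0.073 and 0.082 by edgeR). Kif22 had a slope of 0.04 ± 0.10 in these libraries, although its high and low sets were apart at 2.56 to 4.32 and 1.20 to 2.27 CPM. Without a filter on low counts, slopes were above 0 for 63 of 64 mitosis genes, of which 15 passed, and 36 of 42 S phase genes, of which 1 passed.

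The genes that rose outside the division lists were 6. Stmn1, which destabilises microtubules, rose by 0.34 ± 0.08, Tcf19, a transcription factor known from proliferating beta cells, by 0.37 ± 0.10, and Arhgap11a, a GTPase-activating protein, by 0.33 ± 0.08. Fkbp7, a prolyl isomerase of the endoplasmic reticulum, rose by 0.47 ± 0.10 (adjusted p 0.015 by edgeR), with medians of 2.86 CPM in the high libraries and 1.97 CPM in the low ones. Spag5, a spindle protein missing from the list, rose by 0.56 ± 0.14, and A830039N20Rik by 0.31 ± 0.08. All 23 genes that rose were higher in the high than in the low libraries, and 21 of them at least 1.5-fold.

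**Figure D3:**
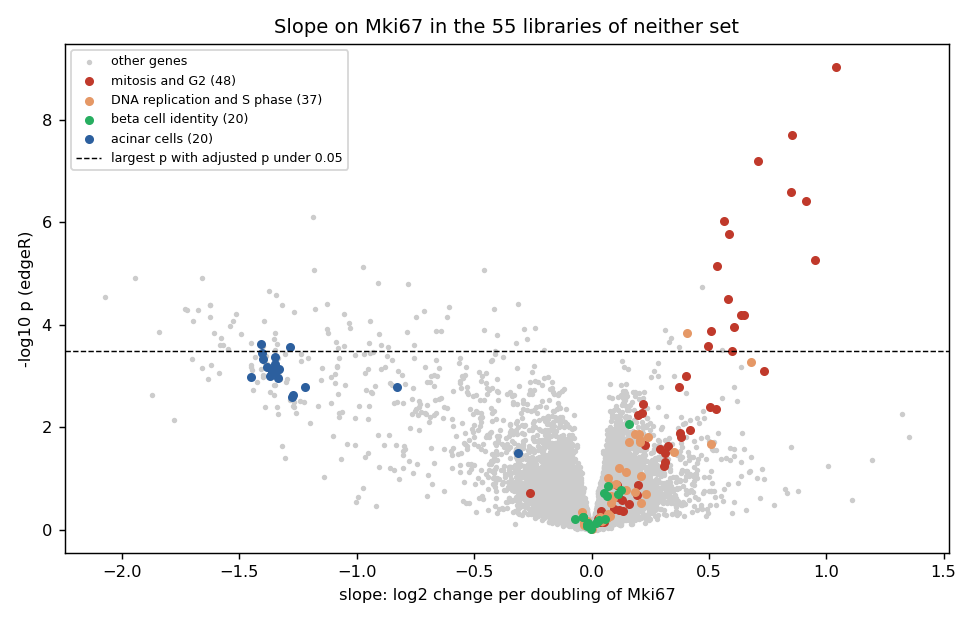
Slope on Mki67 (log2 change per doubling) against -log10 p for 14562 genes in the 55 libraries of neither set, with mitosis genes in red, S phase genes in orange, beta cell identity genes in green and acinar genes in blue; the dashed line marks the largest p whose adjusted p is under 0.05. The mitosis genes spread to the right up to 1.04, the acinar genes stand together on the left, and the beta cell identity genes lie close to 0.

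The 373 genes of the lists other than the division and acinar ones held 0 that rose or fell by edgeR's test, with 15 higher and 17 lower at an unadjusted p under 0.05, and 0 that rose and 3 that fell by the Wald test of DESeq2. Ins2 had a slope of 0.08 ± 0.09, Ccnd2 one of 0.12 ± 0.05, Cdkn1a one of 0.08 ± 0.23 and Myc one of -0.32 ± 0.12, and none of them passed (adjusted p 0.86, 0.35, 0.95 and 0.31 by edgeR). Slopes of the 20 beta cell identity genes lay between -0.07 and 0.16, with 1 higher at an unadjusted p under 0.05. Gbp3 had a slope of 0.14 ± 0.14 and Tex15, Atp5g2 and Clip4 had slopes of -0.07 ± 0.14, 0.07 ± 0.09 and 0.14 ± 0.08. A miss here does not show that these genes stay level.

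The 71 genes that fell with Mki67 were led by Prodh, the first enzyme of proline breakdown, which fell by 1.19 ± 0.21 per doubling (adjusted p 0.0019 by edgeR). Nphs1, the gene of nephrin, fell by 0.97 ± 0.19. Gnmt, which methylates glycine, fell by 1.18 ± 0.24, Gls2, a glutaminase, by 1.35 ± 0.29, and Slc6a9, a glycine transporter, by 0.91 ± 0.19. Cth, which makes cysteine, fell by 1.35 ± 0.34. Amy1, an amylase, fell by 1.37 ± 0.29, Zg16 by 1.41 ± 0.36 and Reg2, a secreted protein of the regenerating family, by 2.07 ± 0.45. Of the 71, 69 were lower in the high than in the low libraries, 51 of them at least 1.5-fold. Prodh had 0.864, 2.07 and 4.92 CPM in the high libraries and 1.16, 3.85 and 9.92 CPM in the low ones.

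These genes moved with the acinar share, which through the column sum also enters the Mki67 CPM they were fitted on. Over the 55 libraries their levels had a median Spearman's rho of 0.83 with the mean log2 level of the acinar list, and 55 of the 71 were above 0.5, against 1.78% of all genes tested. Mki67 itself had a rho of -0.47, near the median of -0.50 over all genes tested. All 20 acinar genes had slopes below 0 with an unadjusted p under 0.05, and 2 of them passed the adjusted threshold. With the acinar score as a further term 0 genes fell by edgeR's test, with 378 lower at an unadjusted p under 0.05 among all genes, and 67 of the 71 had slopes below 0. Then the median slope of the 71 was -0.22, against -1.18 without it. The score is the mean of the acinar genes, so this term takes up their own slopes, whose median was -0.02 with it and -1.35 without. With the same term 10 of the 23 that rose still passed, all 23 slopes stayed above 0, and their median was 0.64, against 0.58 without it. Leaving out 1 run set at a time moved the number that rose between 3 (without 76 to 85) and 47 (without 1 to 8 and 34 to 39), and the number that fell between 1 (without 17 to 24 and 49 to 58) and 248. Without the run set term 6 rose and 11 fell. With libraries over 20% acinar left out, 51 libraries remained, in which 32 genes rose and 102 fell. The part of the acinar share in these slopes was not tested further.

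**Figure D4:**
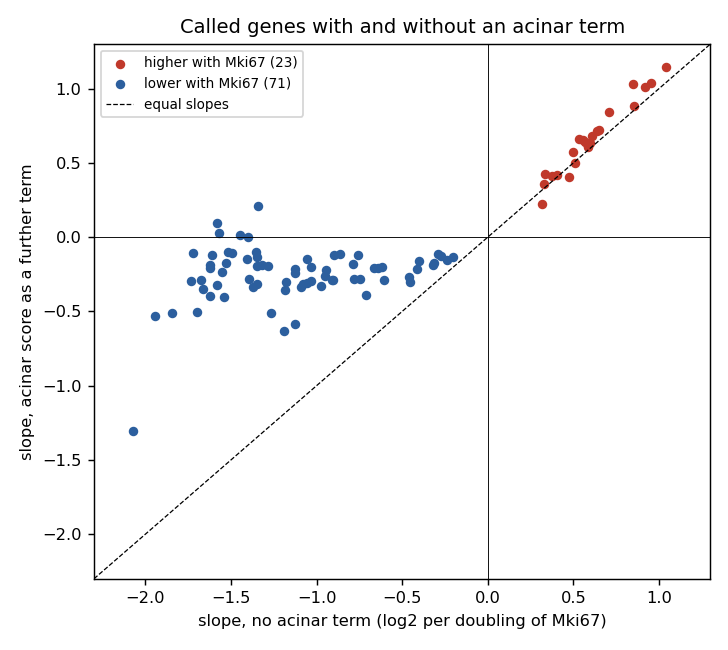
Slopes on Mki67 of the 94 called genes in the 55 libraries, with no acinar term (x axis) and with the acinar score as a further term (y axis), both as log2 change per doubling; the dashed line marks equal slopes. The 23 genes that rose (red) stay near the line, and the 71 that fell (blue) move to a median of -0.22.

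The promoters of the genes that rose shared short motifs. Windows of 250 bases before to 50 after the start were taken from RefSeq (GRCm38.p6) and searched on both strands for TTTGAA or TTCGAA (cell cycle homology region), CCAAT (NF-Y) and TTTCGCGC or TTTGGCGC (E2F). Of 64 mitosis genes 52 matched, with 54 windows, of which 75.9% held the cell cycle homology region, 72.2% the NF-Y word and 63.0% both, against 19.2%, 37.4% and 7.52% of all 32851 windows. E2F words stood in 5.56% of them, in 25% of the 40 S phase windows and in 0.813% of all windows. In the 40 S phase windows the cell cycle homology region stood in 20%. Of the 23 genes that rose 19 matched, and 71.4% of their 21 windows held that word. Of the 71 that fell only 46 matched, some with several windows, and 16.9% of their 71 windows held it. Of the 42 S phase genes 34 matched. The windows of Mki67, Top2a and Cdk1 are shown as examples that hold both words more than once, as that of Ckap2l, not shown, also does. That of Nek2 is shown because it rose with Mki67 and holds no cell cycle homology region in this window. Cdk1 also holds 1 E2F word. Capitals mark the words of all 3 kinds on either strand, 5′ to 3′ on the strand of the gene.
Mki67 (chr7:135716330-135716629, minus): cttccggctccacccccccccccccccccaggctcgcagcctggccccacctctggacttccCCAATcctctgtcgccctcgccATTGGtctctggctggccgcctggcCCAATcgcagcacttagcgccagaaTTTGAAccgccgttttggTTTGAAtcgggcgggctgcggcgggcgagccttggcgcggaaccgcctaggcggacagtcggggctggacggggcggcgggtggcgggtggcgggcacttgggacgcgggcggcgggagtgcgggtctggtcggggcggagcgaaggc
Top2a (chr11:99024140-99024439, minus): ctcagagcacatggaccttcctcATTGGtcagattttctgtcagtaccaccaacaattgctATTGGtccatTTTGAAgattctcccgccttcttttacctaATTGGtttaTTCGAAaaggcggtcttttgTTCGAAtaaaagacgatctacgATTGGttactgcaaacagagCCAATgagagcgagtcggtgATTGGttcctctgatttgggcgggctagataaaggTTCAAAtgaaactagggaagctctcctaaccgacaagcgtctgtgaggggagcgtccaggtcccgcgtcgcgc
Cdk1 (chr10:69352863-69353162, minus): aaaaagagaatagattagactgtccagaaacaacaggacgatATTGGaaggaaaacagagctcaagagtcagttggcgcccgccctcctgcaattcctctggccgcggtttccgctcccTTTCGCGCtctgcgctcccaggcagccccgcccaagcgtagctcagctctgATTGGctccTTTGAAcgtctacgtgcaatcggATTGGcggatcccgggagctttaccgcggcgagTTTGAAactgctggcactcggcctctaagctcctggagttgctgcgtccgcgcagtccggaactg
Nek2 (chr1:191821223-191821522, plus): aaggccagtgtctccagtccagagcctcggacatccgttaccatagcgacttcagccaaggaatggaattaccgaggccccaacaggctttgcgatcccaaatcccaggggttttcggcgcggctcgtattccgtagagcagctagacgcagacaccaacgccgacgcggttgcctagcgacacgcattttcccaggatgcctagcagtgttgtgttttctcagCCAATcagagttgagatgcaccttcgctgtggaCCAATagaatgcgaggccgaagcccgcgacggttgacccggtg
A match describes letters and not binding.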

How the data were processed

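The series holds RNA-seq of islets, 95 libraries in all, made by poly(A) capture with ERCC controls added, per the labels' protocols. The authors deposited estimated counts for 20638 genes, with no normalization (67.7% were whole to within 1e-06), variance-stabilised log2-like values from the same genes, and a table of symbols and positions. The submitters' processing notes name GRCm38 and DESeq2. The aligner, the counting tool and its use of strand are not given in the sources used here. Totals are column sums, between 16411809 and 34357253 counts.

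The labels give no groups. High and low libraries were chosen by Mki67 CPM, so their comparison is a description: the log2 ratio of median CPM, with 0.1 CPM added to each median, for autosomal genes that reached 1 CPM in 10 or more of 85 libraries. The test used estimated counts rounded to whole numbers in the 55 other libraries with TMM in edgeR 4.0.16 (R 4.3.3), log2 Mki67 CPM and run set as terms, and the filter of 1 CPM in at least 10 of them. The steps of the fit were tested on simulated data with the same spread for every gene, no run set or acinar differences, and Mki67 taken as exact. In the 55 libraries Mki67 rests on 59 to 208 counts, and the fit does not model its error.

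The members, the run sets and the 30 gene lists were chosen with earlier results of these data known. Genes are named by a rule: Mki67, in each list the members of highest and lowest ratio (in the division lists the 4 highest and the lowest), outside the division lists the 12 highest and 12 lowest ratios and the 12 lowest p in each direction at a median of 2 CPM or more, and all genes that rose. Top2a, Ccnb1, Kif11, Kif22 and Fignl1 were named with their values seen, as were Cth, among those that fell, and G6pc2. Many genes the rule picks are left unreported. Among them are Aldh1a3 (log2 ratio 1.10, and 1.21 with run set medians subtracted) and Hba-a1 (-2.71, and -0.20). Others are Egr3, Nr4a3, Krt8, Akap6, Cd44 and Col7a1. Counts of higher and lower genes are not given for alpha cells, delta cells, fibroblasts, erythroid cells and adipocytes. The same holds for the unfolded protein response, glycolysis, nucleotide synthesis and genes normally low in beta cells. Alternatives were other scalings, filters, set sizes, markers, run factors, acinar and Xist terms, DESeq2 1.42.0, and leaving out run sets or libraries with over 20% acinar counts. Sequence sharing is the share of 31-base words of a gene found in transcripts of other GENCODE genes.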

Additional observations from a re-analysis of the deposited data

Results flagged for a closer look

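The 10 libraries numbered 91 to 100, which enter no comparison here, held more Mki67 than the others. Their median was 24.9 CPM and their range 4.28 to 125 CPM, against a median of 4.63 CPM over the 85 libraries compared. Their 14 lymphocyte genes summed to a median of 374 CPM, against 11.6 CPM over the 85. Their Mki67 levels rest on 88 to 2851 counts per library. The values are given because they come from libraries outside the comparison.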

How the results depend on the processing

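Counts of genes at least 1.5-fold higher and lower in the high libraries (1687 and 394) moved with scaling and run sets: 649 and 746 with TMM, 108 and 215 with the deposited variance-stabilised values, whose scale is compressed for low genes, 545 and 203 with 2 against 2 libraries per run set, 519 and 116 with run set medians subtracted, and 256 and 193 with TMM as well, an alternative chosen after seeing the data. Without libraries over 20% acinar 764 were higher and 542 lower. Without library 90, also an alternative chosen after seeing the data, the counts were 1720 and 427. Sets that do not overlap (7 genes) numbered 1 with TMM, with variance-stabilised values and with TMM and run set medians, 18 with 10 against 10 libraries, 2 with 20 against 20, 3 with 2 per run set and 15 with Top2a as the marker. For the slopes (23 rose and 71 fell), the counts were 6 and 11 without the run set term, 211 that fell with 11 unbroken stretches, 35 and 144 with the Wald test of DESeq2, 35 and 158 with Xist as a term, 10 and 0 with the acinar score, and 4 that fell with Top2a in place of Mki67. Leaving out libraries over 20% acinar gave 32 that rose and 102 that fell. At a median of 5 CPM or more 0 rose and 19 fell by edgeR's test, with 430 and 455 at an unadjusted p under 0.05, since 1 of the 23 genes reaches that level. Without run sets in turn, the counts were 47 and 248 (without 1 to 8 and 34 to 39), 8 and 2 (without 9 to 16 and 40 to 48), 1 that fell (without 17 to 24 and 49 to 58), 149 that fell (without 25 to 32 and 59 to 65), 147 that fell (without 66 to 75), and 3 and 4 (without 76 to 85). Other causes were not tested. Ratios of 1.5-fold or more changed sign for Spc25 (0.0705), Ccnd2 (-0.0162), Lefty1 (0.37) and Amd2 (0.35) with run set medians subtracted, for Ccnd2 (-0.0239), Trpm5 (-0.12), Atp5g2 (-0.11), Dmtn (-0.0593) and Amd2 (0.0941) with TMM and run set medians, for Dmtn with 10 against 10 libraries (-0.13), and for Fbp1 (-0.18 and -0.12) and Amd2 (0.32 and 0.18) with 2 per run set and with Top2a. Smaller ratios also changed sign: Foxa2 (-0.37) was 0.07, 0.14, 0.28 and 0.40 with 10 against 10, 20 against 20, 2 per run set and Top2a, Men1 (-0.06) was 0.15 with 10 against 10, Cdkn1a (0.03) was -0.20 with Top2a, and Myc (-0.07) was 0.04 with 2 per run set. Slopes that had not passed changed sign for Atp5g2 (-0.52), Clip4 (-0.53) and Kif22 (-0.0204) without the run set term, for Gbp3 (-0.024) and Cdkn1a (-0.30) with Top2a, for Cdkn1a with 11 stretches (-0.11) and without 25 to 32 and 59 to 65 (-0.0141), for Kif22 without that run set (-0.0585) and without 9 to 16 and 40 to 48 (-0.0241), and for Tex15 with Xist (0.0056) and without 9 to 16 and 40 to 48 (0.0236) or 76 to 85 (0.0827). At levels near 1 CPM, 16 to 34 counts stand behind a value, which limits single mitosis genes. No paired analysis was possible because the labels give no replicate numbers shared between sets.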
